A study of Mus musculus with 6 samples.

Results

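Cells copy their DNA under constant risk of breaks, stalled forks and crosslinks. Homologous recombination repairs a broken chromosome by copying the sister chromatid, the Fanconi pathway unhooks crosslinks between the strands, and the checkpoint kinases ATR and ATM hold the cell cycle back while this is done. Many of these proteins act during and after replication, and their genes are known in breast tissue because inherited loss of BRCA1, BRCA2 or PALB2 predisposes to breast cancer.

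The RNA of 39 such genes was examined in sorted mouse breast cancer cells. They were taken as a list of symbols, and every probe set whose only symbol in the platform annotation was one of them was used. Of the 39, 37 were measured, by 80 probe sets, among 18193 measured genes. Rbbp8 and Xrcc2 were not analysed here. A further 3 probe sets named with a second gene (Fsbp with Rad54b, Trex1 with Atrip) were left out.

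The cells, called breast cancer stem cells in the labels, were grown in serum-containing medium. Sorting separated cells that carry the adhesion proteins CD24 and CD29 on their surface (CD24+CD29+) from cells that carry neither (CD24-CD29-). RNA of each group was hybridised to 3 Affymetrix Mouse430_2 arrays, 6 in all. No agent, genotype, strain, age or line is named in the labels used here. The series describes the arrays as biological replicates but does not say whether cultures or sorts were separate. The p-values therefore reflect only how much these arrays varied, and that variation may be technical.

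All values and differences below are log2, where 1 unit is a 2-fold change, and every difference is CD24+CD29+ minus CD24-CD29- on the scale as deposited, on which every array has the same mean. Scaling to added poly-A control RNAs instead would raise every difference by 0.97. Arrays of a group correlated at 0.998 to 0.999 across genes and arrays of different groups at 0.974 to 0.978. Of the sort genes, Itgb1 was higher in CD24+CD29+ cells by 0.87 and Cd24a by 0.21. All 9 mammary epithelial markers were well expressed in both groups, with Epcam at 14.1 and Cdh1 at 11.9 in each, but most differed. The basal markers Krt14, Trp63 and Krt5 were higher in CD24+CD29+ cells, by 0.99, 0.80 and 0.65. The luminal markers Elf5, Krt19, Krt18 and Krt8 were lower, at -0.97, -0.95, -0.42 and -0.17. Some markers of other cell types differed between the groups as well. All 7 fibroblast markers were higher in CD24+CD29+ cells, their mean level running from 9.09 to 9.15 on those arrays against 8.15 to 8.19. Of 6 leukocyte markers 3 were lower, with means of 5.71 to 5.80 against 6.06 to 6.12, and the defining one, Ptprc, was dim (4.85 and 4.94). Of 4 endothelial markers 1 was higher and 1 lower, with Pecam1 dim (4.87 and 5.00). Of 2 adipocyte markers Fabp4 was higher (6.72 against 5.84) and Adipoq (4.32 and 4.51) did not pass, and the only erythroid one, Hba-a1, was lower (5.23 against 5.64). Their part in the differences below was not tested. In bulk samples like these, fewer cells of a type and less RNA per cell cannot be told apart.

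The promoters of these genes were searched for short motifs of cell cycle genes. Genes needed for S phase are classically controlled through sites for the E2F transcription factors, and genes needed for mitosis through an element called CHR (cell cycle genes homology region). Windows from 250 bases before to 50 after the start, from a RefSeq table of GRCm38.p6, were found for 30 of the 37 measured genes and searched on both strands for E2F motifs (TTTCCCGC, TTTCGCGC, TTTGCCGC or TTTGGCGC). An E2F motif was present for 9 of the 30 genes (30%), against 3.81% of 14452 measured genes with a window and 2.26% of all 32851 windows. The 28-base stretches that hold the motifs are shown on the strand of the gene, with the motif in capitals. GCGGGAAA and GCGCGAAA are motifs read on the other strand.
Bard1 (chr1:71103164-71103191, minus strand): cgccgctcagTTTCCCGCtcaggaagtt
Brca2 (chr5:150522443-150522470, plus strand): ttaggccacaGCGGGAAAcagacacaca
Rad51c, first window (chr11:87404478-87404505, minus strand): tttccagcgcTTTCGCGCctcttgctct
Rad51c, second window (chr11:87404942-87404969, minus strand): ccccgcgaggGCGGGAAAagcaaggggt
Rmi1 (chr13:58402613-58402640, plus strand): cccgagggagTTTGGCGCgattggagga
Fancg (chr4:43010336-43010363, minus strand): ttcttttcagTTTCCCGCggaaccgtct
Topbp1 (chr9:103305188-103305215, plus strand): cgctcggttgGCGCGAAAgtcggttccc
Chek2 (chr5:110839821-110839848, plus strand): gggattagccGCGGGAAAccaagacgtc
Clspn (chr4:126556991-126557018, plus strand): ccgcgtctggGCGCGAAAgctcgaactt
Mdc1 (chr17:35841472-35841499, plus strand): cttcagcctgTTTCCCGCcggtagccgc

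Distances are from the transcript start of each window, which was the outer edge of the gene for 9 of the 33 windows of these genes and another start for the rest. The motif began 5 to 209 bases before that start in 7 of these stretches and at base 12, 22 or 27 after it in the others. It was held by 3 of 55 other genes of the same pathways (5.45%), near the share of all genes. It was held by 3 of 9 checkpoint targets and 2 of 5 mismatch repair genes (33.3% and 40%). Of the other repair lists, 1 of 11 end joining genes (9.09%), 2 of 18 base excision and 0 of 18 nucleotide excision genes held it. Among the 30 genes, the median difference between the sorted groups was 0.50 with the motif and 0.58 without. It was 0.13 against -0.03 over all measured genes. A CHR motif, TTTGAA or TTCGAA on either strand, was present for 3 of the 30 genes (10.0%, against 17.5% of measured genes): Atr, Eme1 and Bard1. Of 21 mitosis genes 81.0% held a CHR and 4.76% an E2F motif, and of 26 genes of S phase replication 46.2% held an E2F motif and 23.1% a CHR. The windows of the 30 genes had a median GC content of 59.7%, near the 58.7% of all measured genes. Over the 12984 measured genes within their range of GC (41.3% to 73.7%) the E2F share was 3.98%. That range holds most of the 14452 genes, so the genes were not matched on GC content. A match is a run of letters, not a shown binding site.

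**Figure D1:**
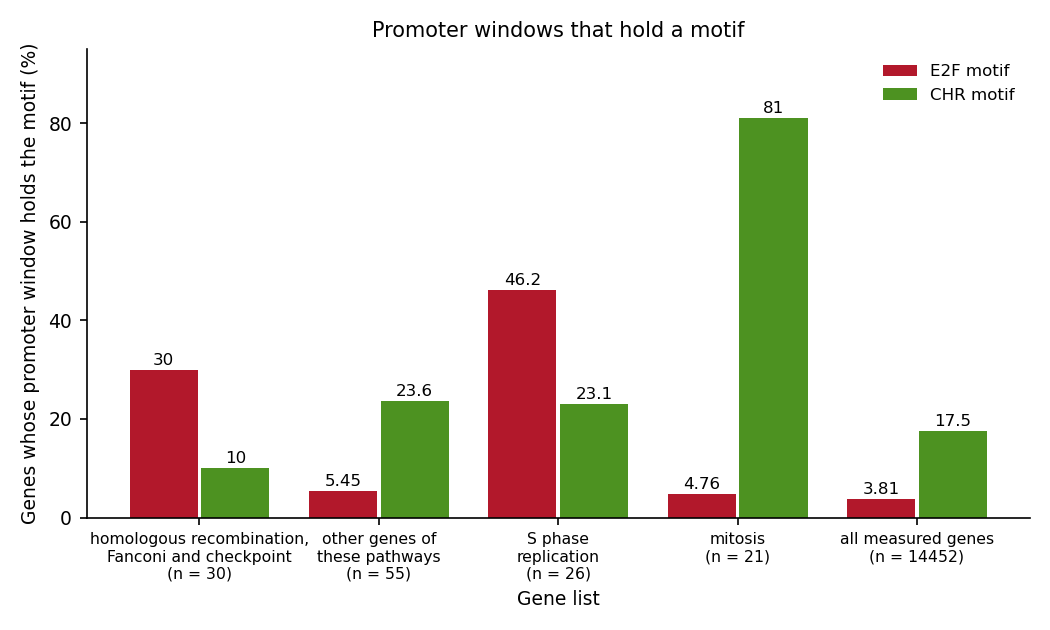
Share of genes (percent, vertical axis) whose promoter window holds an E2F motif (red) or a CHR motif (green), for each gene list and for all measured genes with a window; n is the number of genes with a window. The recombination, Fanconi and checkpoint genes had E2F motifs in 30%, between S phase replication genes (46.2%) and all measured genes (3.81%).

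CCAAT boxes, bound by the factor NF-Y in many cell cycle promoters, were searched too, as CCAAT on either strand, together with the GC box GGGCGG. The CCAAT box was present for 19 of the 30 genes (63.3%, against 42.0% of measured genes and 37.4% of all windows) and the GC box also for 19 (57.3% of measured genes and 35.7% of windows). Among the 30 genes, the median difference between the sorted groups was 0.37 with a CCAAT box and 0.66 without. For the GC box it was 0.50 with and 0.66 without. The motifs can overlap in GC-rich sequence. The 150 bases before the start are shown for the 3 genes with the largest differences among those with such a match, with the CCAAT and GC boxes in capitals.
Rad54l (chr4:116123691-116123840, minus strand): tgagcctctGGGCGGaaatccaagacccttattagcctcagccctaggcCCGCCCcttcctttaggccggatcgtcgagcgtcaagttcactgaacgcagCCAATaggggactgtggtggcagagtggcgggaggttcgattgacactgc
Clspn (chr4:126556830-126556979, plus strand): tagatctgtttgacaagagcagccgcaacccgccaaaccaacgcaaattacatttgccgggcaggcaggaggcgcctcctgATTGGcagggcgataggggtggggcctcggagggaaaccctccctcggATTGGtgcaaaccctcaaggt
Fanca (chr8:123318577-123318726, minus strand): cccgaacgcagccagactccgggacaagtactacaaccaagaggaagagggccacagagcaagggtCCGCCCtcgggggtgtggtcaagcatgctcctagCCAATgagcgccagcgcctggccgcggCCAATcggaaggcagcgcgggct

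The main comparison asked whether the RNA of these genes differed between the sorted groups. It was higher in CD24+CD29+ cells for 34 of the 37 genes and lower for none, the other 3 being Fancc, Atm and Mdc1 (limma, Benjamini-Hochberg adjusted over all 18193 genes, threshold 0.05). Over all genes 34.4% were higher and 36.5% lower by the same rule. The median difference was 0.50 over the 37 genes and -0.04 over all genes. At least 2-fold differences were found for 7 of the 37 (Rad54l, Clspn, Rad54b, Exo1, Chek1, H2ax and Fanca), against 3.01% of all genes. All 3 CD24+CD29+ arrays lay above all 3 CD24-CD29- arrays for 33 of the 37, against 35.9% of all genes. The groups overlapped for Brca2, Fancc, Atm and Mdc1.

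Brightness matters for such counts, because dim genes were more often lower and bright genes more often higher on these arrays. Among genes with a mean level of 6 to 7, 28.0% were higher, and all 9 of the studied genes in that range were. From 7 to 8 the share was 49.6% of all genes and 6 of 8 studied genes, from 8 to 9 it was 58.8% and 11 of 12, and from 9 to 10 it was 57.7% and 4 of 4. The 3 studied genes between 5 and 6 were higher too, where 8.22% of all genes were.

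**Figure D2:**
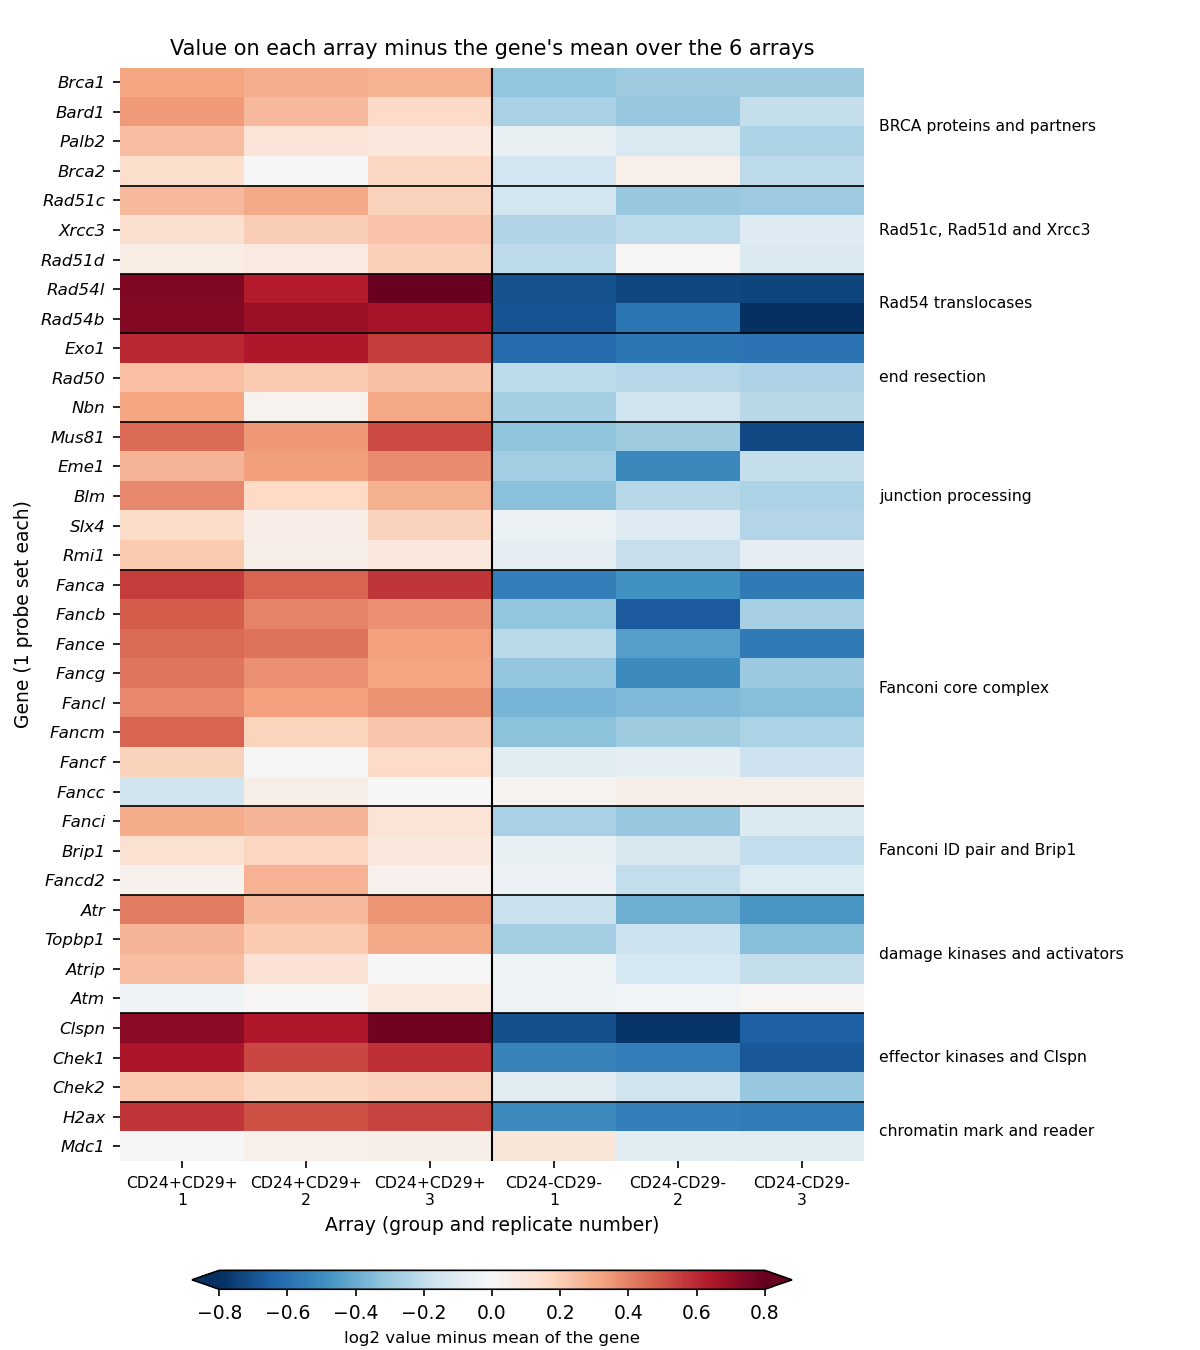
Colour gives the log2 value of each gene (rows, grouped by role) on each of the 6 arrays (columns) minus the gene's mean over the 6 arrays. The 3 CD24+CD29+ arrays are above the 3 CD24-CD29- arrays in 33 of 37 rows, most strongly for Rad54l, Rad54b, Clspn, Exo1 and Chek1.

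Recombination starts when the broken end is resected to single-stranded DNA. Exo1, an exonuclease that does the long-range part, was 2.29-fold higher in CD24+CD29+ cells. Its values (1418026_at) were 7.82, 7.86 and 7.77 on the CD24+CD29+ arrays and 6.60, 6.63 and 6.62 on the CD24-CD29- arrays, a gap far wider than the spread within either group (difference 1.20, SE 0.04, limma adjusted p = 6.4e-07). Rad50 and Nbn, which with the nuclease MRE11 form the complex that senses ends, were higher by 0.45 (SE 0.04) and 0.44 (SE 0.08). A dim second probe set of Rad50 went the other way, at -0.18, and of the other Exo1 probe sets 1 was higher by 0.80 and 1 (0.06) did not pass.

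BRCA1, BARD1, PALB2 and BRCA2 act together in the next step, which readies the resected end for strand exchange. All 4 genes were higher, in order of size Brca1, Bard1, Palb2 and Brca2. Brca1, which forms a ubiquitin ligase with BARD1, read 10.04, 10.01 and 10.00 against 9.40, 9.44 and 9.43 (1424629_at; difference 0.59, SE 0.04, limma adjusted p = 8.8e-06, 1.5-fold). These groups were tight and well apart. The 3 other probe sets of Brca1 differed by 1.28, 0.70 and -0.23, and the last of these passed as lower in the fit over all probe sets. All 3 were dim, with means of 5.60, 4.49 and 5.42. Bard1 was higher by 0.50 (SE 0.06), on an only probe set that was dim as well, with a mean of 5.24. Palb2, the bridge to BRCA2, was higher by 0.29 (SE 0.07), although it missed the threshold after quantile normalization (difference 0.14, adjusted p = 0.057).

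Brca2, whose product acts on the resected single-stranded DNA, had the largest adjusted p of the 34. It read 8.71, 8.57 and 8.73 on CD24+CD29+ arrays and 8.41, 8.61 and 8.36 on CD24-CD29- arrays, so that the groups overlapped (difference 0.21, SE 0.08, limma adjusted p = 0.040). Leaving out CD24+CD29+ replicate 1 or 3 or CD24-CD29- replicate 1 or 3 ended the call, with differences of 0.19, 0.18, 0.19 and 0.16 and adjusted p of 0.11 to 0.12. The difference was 0.01 after quantile normalization and -0.00 after cyclic loess, neither past the threshold.

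Rad51c, Rad51d and Xrcc3 encode related proteins that assist strand exchange. Rad51c was higher by 0.50 (SE 0.06), Xrcc3, its partner, by 0.37 (SE 0.05) and Rad51d by 0.21 (SE 0.07). For Rad51d the 4 probe sets differed in direction: 2 passed as higher, 1 as lower by -0.63, and 1 did not pass. The mean of the 4 gave -0.08, not past the threshold (adjusted p = 0.10). The Rad51d call was also lost after quantile normalization and cyclic loess (0.08 and 0.10), and without CD24+CD29+ replicate 3 (0.17) or CD24-CD29- replicate 1 or 3 (0.16 and 0.21).

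Both Rad54 translocases, motor proteins that act on the duplex during strand exchange, were among the 3 largest differences of the 37, with Clspn between them. Rad54l stood at 9.27, 9.16 and 9.32 in CD24+CD29+ cells and 7.84, 7.80 and 7.80 in CD24-CD29- cells (1450862_at; difference 1.44, SE 0.05, limma adjusted p = 6.7e-07, 2.71-fold). No array of one group came near the other. The size depended on the probe set. Of the others, all dimmer, 2 were higher by 0.69 and 0.65 and 1 (-0.10) did not pass, and the mean of the 4 gave 0.67. Its paralog Rad54b read 6.89, 6.83 and 6.81 against 5.46, 5.57 and 5.34 (1434734_at; difference 1.39, SE 0.06, limma adjusted p = 1.6e-06, 2.61-fold).

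Joint molecules left by strand exchange are taken apart by the BLM helicase with RMI1 or cut by nucleases. All 5 measured genes of this step were higher. Mus81, the catalytic nuclease, read 8.51, 8.41 and 8.58 against 7.74, 7.77 and 7.33 (1450432_s_at, a kind of probe set that can read related transcripts; difference 0.88, SE 0.12, 1.85-fold, limma adjusted p = 2.9e-04). The lowest of these, CD24-CD29- replicate 3, widened the spread, but the groups stayed apart, and a second Mus81 probe set gave 0.86. Eme1, its partner subunit, read 7.02, 7.08 and 7.13 against 6.47, 6.23 and 6.56 (1435054_at; 0.66, SE 0.08, 1.58-fold, limma adjusted p = 2.6e-04). Blm was higher by 0.55 (SE 0.06). Slx4, the scaffold of the nucleases, and Rmi1 were higher by 0.26 and 0.22 (SE 0.06 each), and both calls were lost after quantile normalization (0.09 and 0.02) and cyclic loess (0.09 and 0.02). Of 5 Rmi1 probe sets, 4 were higher by 0.21 to 0.22 and 1 lower, at -0.16.

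**Figure D3:**
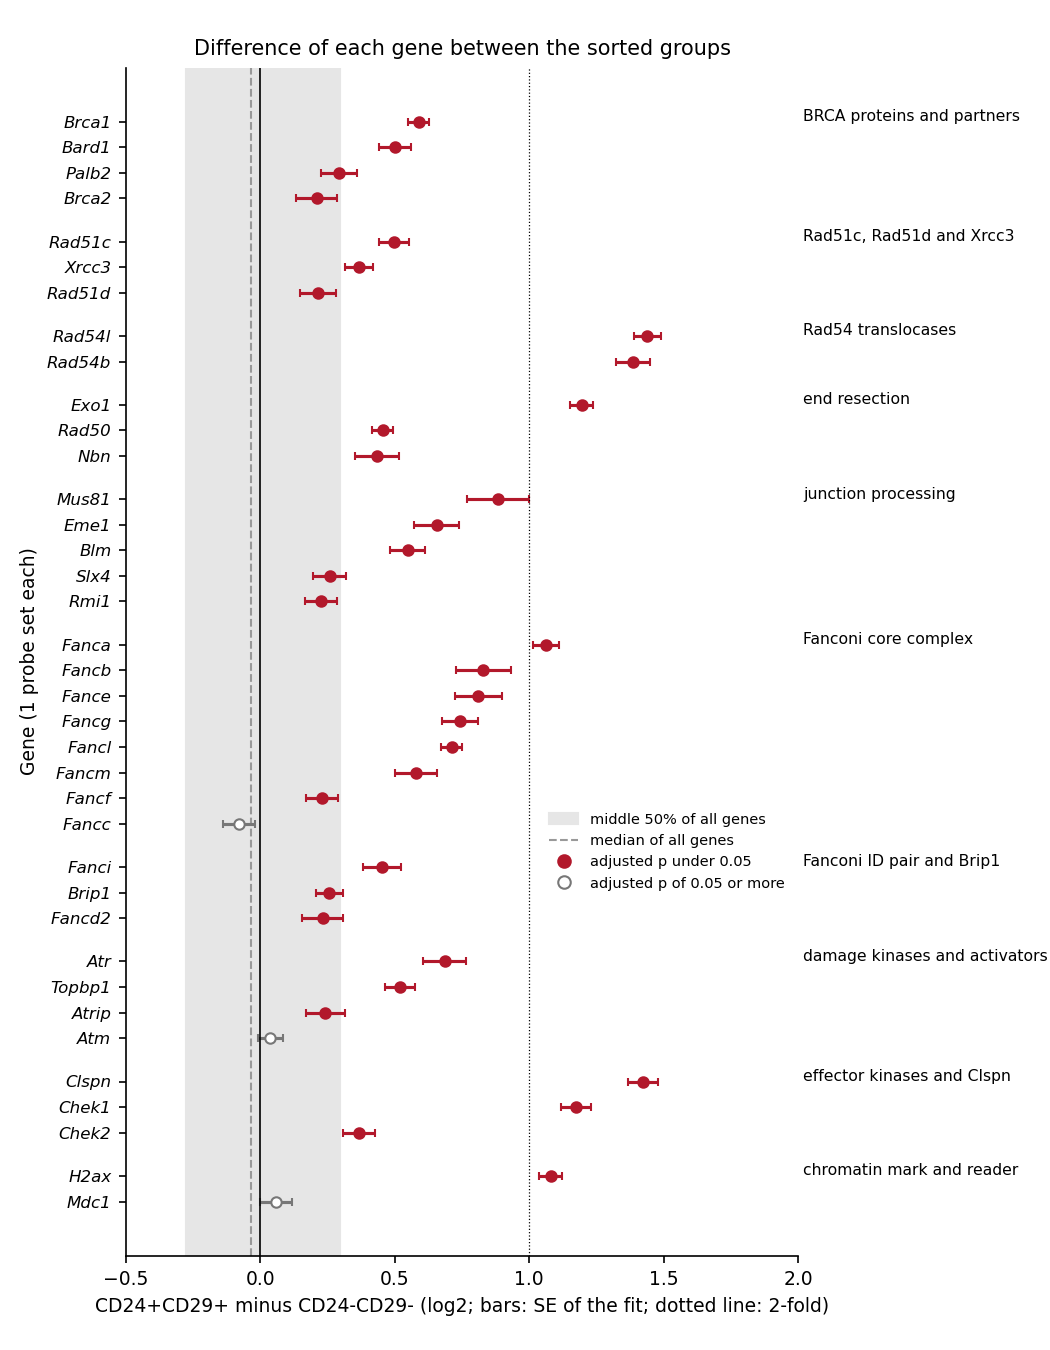
Difference of each gene between CD24+CD29+ and CD24-CD29- cells (log2, horizontal axis) with the SE of the fit, grouped by role; filled red points passed the threshold, open grey points did not, and the grey band holds the middle 50% of all genes. The Rad54 translocases, Exo1, Clspn, Chek1, H2ax and Fanca lie beyond the 2-fold line, and Fancc, Atm and Mdc1 lie near 0.

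In the Fanconi pathway, a core complex of several proteins attaches ubiquitin to the pair FANCD2 and FANCI, which then directs the unhooking of the crosslink. Of the 8 core genes 7 were higher, with a median difference of 0.73, and Fancc did not pass. Fanca, one of the core's larger subunits, read 8.27, 8.17 and 8.28 against 7.17, 7.23 and 7.14 (1418856_a_at; difference 1.06, SE 0.05, limma adjusted p = 1.7e-06, 2.09-fold). No array of one group reached the range of the other. Its second probe set, dim, went the other way by -0.37, and the mean of both was 0.35.

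The gene of the core's catalytic module, Fancl, which encodes the ubiquitin ligase itself, read 10.19, 10.13 and 10.16 against 9.43, 9.45 and 9.46 (1423624_at; difference 0.71, SE 0.04, 1.64-fold, limma adjusted p = 3.9e-06). Fancb, whose product binds FANCL, read 7.29, 7.20 and 7.17 against 6.50, 6.14 and 6.54 (1437780_at; 0.83, SE 0.10, 1.78-fold, limma adjusted p = 2.1e-04). In both, the groups were separate, and the CD24-CD29- arrays of Fancb were the more scattered. A dim second Fancb probe set (-0.01) did not pass.

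Fance, which links the core to FANCD2, read 7.29, 7.27 and 7.17 against 6.62, 6.40 and 6.28 (1453689_at; 0.81, SE 0.09, 1.75-fold, limma adjusted p = 1.1e-04). Fancg, a partner of FANCA, read 7.33, 7.27 and 7.22 against 6.59, 6.39 and 6.60 (1450059_at; 0.74, SE 0.07, 1.67-fold, limma adjusted p = 4.1e-05). Every CD24+CD29+ array was above every CD24-CD29- array for both genes. A dim second Fancg probe set (-0.03) did not pass. Fancm, the translocase that anchors the core on DNA, was higher by 0.58 (SE 0.08), with a dim probe set at -0.29. Fancf, a scaffold of the core, was higher by 0.23 (SE 0.06) on its main probe set, by 0.58 on another and lower on the last, at -0.19, and lost its call after quantile normalization and cyclic loess (0.03 and 0.02).

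Fancc, another core subunit, did not pass. It read 6.93, 7.13 and 7.09 on CD24+CD29+ arrays and 7.11, 7.14 and 7.13 on CD24-CD29- arrays, and the groups overlapped (1450861_at; difference -0.08, SE 0.06, limma adjusted p = 0.27). Of its 3 probe sets none was higher and 1 was lower, by -0.54. Fancc passed as lower after quantile normalization (-0.19, adjusted p = 0.029), cyclic loess (-0.18, adjusted p = 0.049) and with the mean of its probe sets (-0.28, adjusted p = 0.0028), and as higher after scaling to the added poly-A control RNAs (0.90). Whether its difference departs from those of the other core genes was not tested.

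Downstream of the core, Fanci was higher by 0.45 (SE 0.07) and the helicase gene Brip1 by 0.26 (SE 0.05). The only Brip1 probe set was dim, with a mean of 5.22. For Fancd2, the call depended on the probe set. Its main probe set read 6.64, 6.88 and 6.64 against 6.56, 6.41 and 6.49 (difference 0.23, SE 0.08, limma adjusted p = 0.027). The groups did not overlap, but the nearest arrays, at 6.64 and 6.56, were close. Of its 4 probe sets 1 was higher, 1 lower (-0.28) and 2 did not pass, and their mean gave 0.02 (adjusted p = 0.75). Without CD24+CD29+ replicate 2 or CD24-CD29- replicate 2 or 3 the call was lost (0.15, 0.19 and 0.24).

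The damage signal itself runs along 2 kinase branches. ATR, brought to single-stranded DNA by ATRIP and switched on by TOPBP1, activates CHK1 with the help of CLSPN, and ATM, brought to broken ends, activates CHK2. The genes of the ATR branch were all higher. Atr read 8.71, 8.55 and 8.64 against 8.12, 7.90 and 7.83 (1427197_at; difference 0.69, SE 0.08, limma adjusted p = 1.7e-04, 1.61-fold), and the groups were separate. Of its other probe sets 1 was higher by 0.35 and 1 (-0.04) did not pass. Topbp1 was higher by 0.52 (SE 0.06) and Atrip by 0.24 (SE 0.07). The only Atrip probe set was dim, with a mean of 5.41. Atrip missed the threshold without CD24+CD29+ replicate 1 (0.18) or CD24-CD29- replicate 3 (0.21).

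At the end of that branch, Clspn and Chek1 were both over 2-fold higher. Clspn read 8.80, 8.72 and 8.85 against 7.38, 7.30 and 7.43 (1456280_at; difference 1.42, SE 0.05, limma adjusted p = 8.5e-07, 2.68-fold). Chek1, the gene of CHK1, read 10.62, 10.52 and 10.56 against 9.45, 9.43 and 9.30 (1449708_s_at; 1.18, SE 0.06, limma adjusted p = 1.8e-06, 2.26-fold). Both were separated by at least 1 log2 unit on every pair of arrays. Of the other Chek1 probe sets, 2 were higher by 1.41 and 0.98, and of the pair of dim ones 1 did not pass (0.08) and 1 was lower (-0.21). The dim second probe set of Clspn (0.12) did not pass.

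In the ATM branch, Atm did not pass and Chek2 did. Atm read 8.25, 8.30 and 8.37 against 8.25, 8.27 and 8.29, with the groups overlapping (1428830_at; difference 0.04, SE 0.05, limma adjusted p = 0.49). Its other probe set was higher by 0.64, however, and the mean of both passed as higher (0.34, adjusted p = 1e-04), whereas the main probe set passed as lower after quantile normalization (-0.17, adjusted p = 0.029) and cyclic loess (-0.17, adjusted p = 0.025). Chek2, the gene of CHK2, was higher by 0.37 (SE 0.06). The difference between the branches was not tested.

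H2ax encodes the histone variant that ATM and ATR phosphorylate around a break, and MDC1 reads that mark. H2ax read 12.31, 12.24 and 12.28 against 11.22, 11.19 and 11.17 (1416746_at, its only probe set; difference 1.08, SE 0.04, limma adjusted p = 8.2e-07, 2.11-fold), and the groups were 1 log2 unit apart. Mdc1 read 7.36, 7.40 and 7.41 against 7.46, 7.28 and 7.27 (1434837_at; 0.06, SE 0.06, adjusted p = 0.41), with the highest of the 6 values on a CD24-CD29- array. It turned negative, without passing, after quantile normalization (-0.10) and cyclic loess (-0.08).

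Over all 80 probe sets of the 37 genes, 54 were higher, 10 lower and 16 did not pass in a fit over the 45037 probe sets that are not controls, of which 29.2% were higher and 34.8% lower. The 10 lower ones belonged to Brca1, Rad51d, Rad50, Rmi1, Fanca, Fancc, Fancf, Fancm, Fancd2 and Chek1, and 8 of them had a mean level under 6, near the lower quartile of the arrays (5.20 to 5.40). A mean under 6 was also found for 11 of the 54 higher ones. None of the lower probe sets stood for its gene. For 9 of the genes with a lower one, all except Fancc, probe sets passed in both directions. Every probe set was higher for 17 genes, but most of these had only 1. Of the 24 genes with more than 1 probe set, all were higher for 5 (Xrcc3, Rad51c, Mus81, Fance and Fancl). The like share over all genes was not computed.

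**Figure D4:**
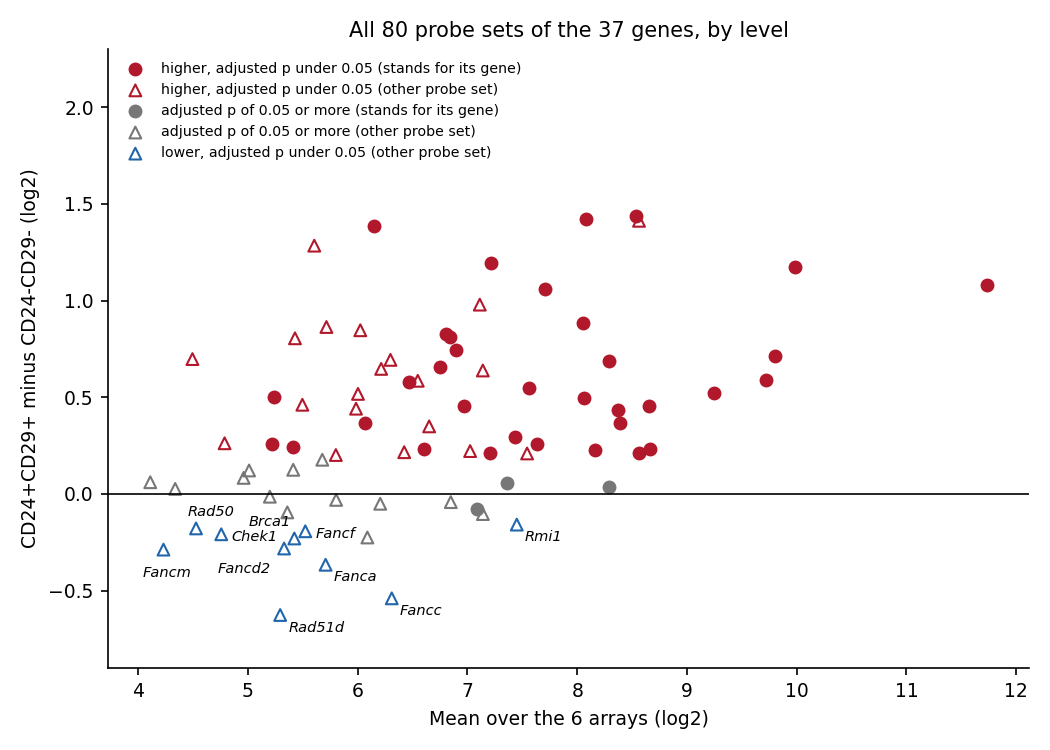
Difference between the groups (log2, vertical axis) of each of the 80 probe sets against its mean over the 6 arrays (log2, horizontal axis); circles stand for their gene, triangles are its other probe sets, and colour gives the call over all probe sets. The 10 lower probe sets are named by gene, and 8 of them lie under 6.

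Other genes of the same pathways were taken as a list of 67. Of the 66 measured, 43 were higher, 10 lower and 13 did not pass, with a median difference of 0.32. That is 65.2% higher and 15.2% lower, against 34.4% and 36.5% of all genes. The median level of the list was 8.22, and the part of brightness in this contrast was not tested. At levels of 8 to 9, 58.8% of all genes were higher, near the 65.2% of the list. As given above, dim genes were more often lower. The largest differences were those of Parpbp, an inhibitor of recombination (3.32-fold), Etaa1, an activator of ATR (2.75-fold), and Timeless, a fork protection gene (2.63-fold). Targets of the checkpoint and the cyclins and kinases it restrains were mostly higher as well, 12 of 14 with 1 lower and a median of 0.86, led by Cdk1 (3.66-fold), Plk1 (3.20-fold) and Cdc25b (3.07-fold).

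Other repair pathways act on other lesions. End joining, which reseals breaks without a template, had 7 of 13 genes higher and 1 lower (median 0.15), with Xrcc5, an end-binding subunit, 2.13-fold higher. Of base excision repair genes, 12 of 20 were higher and 1 lower (median 0.21), and Fen1, a flap nuclease that replication also uses, was 2.06-fold higher. Of nucleotide excision repair genes, 14 of 22 were higher and 5 lower (median 0.28), with Ercc4, a nuclease subunit also used in crosslink repair, 1.76-fold higher. All 5 measured mismatch repair genes were higher (median 0.51, at a median level of 7.76), led by Mlh3 (1.62-fold). Whether these medians differ from that of the 37 genes was not tested. Over all genes 34.4% were higher and 36.5% lower. The higher shares were 53.8% for end joining, 60.0% for base excision and 63.6% for nucleotide excision, at median levels of 7.20, 7.91 and 9.32. Of all genes at levels of 7 to 8, where the median levels of end joining, base excision and mismatch repair lie, 49.6% were higher. The share was 58.8% at 8 to 9 and 57.7% at 9 to 10, where that of nucleotide excision repair lies. The part of brightness in these shares was not tested.

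Cell cycle genes moved with the repair genes on the same arrays. Of 33 genes of S phase replication 32 were higher and 1 lower, with a median of 0.81, and their mean level was 9.41 to 9.48 on CD24+CD29+ arrays against 8.61 to 8.68. All 25 mitosis genes were higher, with a median of 1.08 and mean levels of 9.32 to 9.40 against 8.18 to 8.23. The largest were Mcm5, a subunit of the replicative helicase (4.15-fold), and Prc1, which bundles spindle microtubules (4.49-fold). Over all genes 34.4% were higher. The median levels of the S phase and mitosis lists were 9.12 and 8.90. At levels of 9 to 10 and 8 to 9, 57.7% and 58.8% of all genes were higher. The median over the 37 repair and checkpoint genes ran from 7.84 to 7.94 on CD24+CD29+ arrays and from 7.30 to 7.38 on CD24-CD29- arrays. The part of the cell cycle genes in the repair differences was not tested.

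**Figure D5:**
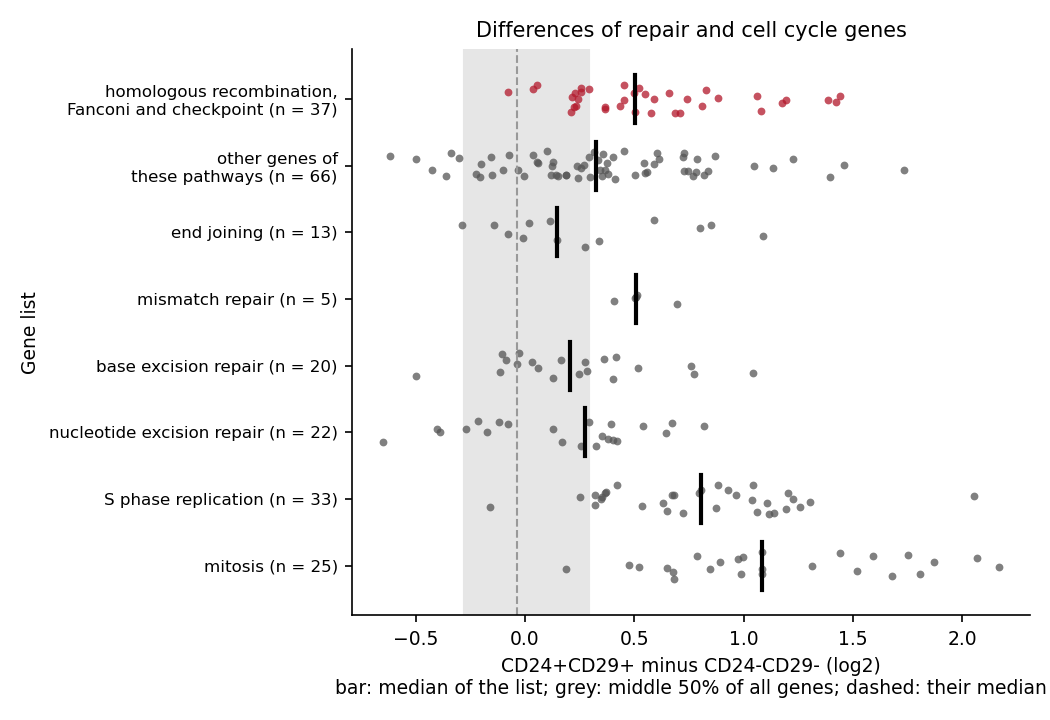
Differences between the groups (log2, horizontal axis) of the genes in each list, 1 point per gene at a random height within its row; the bar is the median of the list and the grey band the middle 50% of all genes. The 37 genes (red) have a median of 0.50, between end joining (0.15) and mitosis genes (1.08), and 1 of them lies below the median of all genes.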

How the data were processed

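The data were the log2 values per probe set of 6 Affymetrix Mouse430_2 arrays, made by the authors with RMA and Partek, per the submitters' processing notes. The sources used here give no version or setting. RMA compresses the differences of dim probe sets. No detection calls came with the values. Of 45101 probe sets, 34945 had 1 gene symbol in the platform annotation, 932 several and 9160 none, and 64 were controls. Each gene took the brightest probe set naming it alone, and a probe set of the cross-hybridising kind (_x_at) only in the absence of others. Groups were compared over 18193 genes with limma 3.58.1 in R 4.3.3 (lmFit, eBayes), with Benjamini-Hochberg adjustment over all genes. SE is that of the fit (median 0.06). The script was tested on simulated data.

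The genes and lists were chosen with earlier results of these data known. All measured members were named, and those at least 1.5-fold apart and past the threshold are given with every array. From each other list at most the 3 largest differences were named. E2F stretches were chosen after the motif search. Alternatives covered scaling, the choice of probe set, filters, the variance model, the replicate number as a block and each array left out. Whether the same number paired the arrays is not stated, and 3 arrays a group cannot settle it. Deviations of same-numbered arrays correlated at 0.22, -0.05 and 0.04, and those of differently numbered arrays at -0.24 to 0.21.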

Additional observations from a re-analysis of the deposited data

How the results depend on the processing

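Of the 37 genes, 26 kept their call and direction under every one of the 17 alternative settings that they entered, and all 26 were called higher. The count of higher genes was 30 to 33 leaving out 1 array, 28 after quantile normalization, 29 after cyclic loess and 32 with the replicate block, which lost Brca2 and Fancd2 and left the count of other pathway genes at 44 higher and 10 lower. Not every array correlated best with its own number. Lower genes numbered 2 after quantile normalization and 2 after cyclic loess (Fancc and Atm in both) and 1 with the mean of probe sets. The median difference was 0.39 after quantile normalization, 0.40 after cyclic loess, 0.56 after median centring and 0.36 with the mean of probe sets. Reversals were Atm (-0.17 and -0.17 after quantile normalization and cyclic loess), Mdc1 (-0.096 and -0.082), Brca2 (-0.0027 after cyclic loess) and Rad51d (-0.079 with the mean of probe sets); the cause was not tested. Scaling to the poly-A control RNAs, lower on CD24+CD29+ arrays by a mean of 0.97, adds that amount to every gene: the median was 1.48 against 0.94 for all genes, 37 members and 66 other pathway genes were higher, 0 of the latter lower, and Fancc was at 0.90. Other pathway genes that were lower numbered 5 without the dimmest 40% of genes, fewer being tested. Of all calls, 48.5% were higher on the deposited scale, 65.9% without that 40% and 98.8% scaled to poly-A.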

Other observations

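Several of these genes start back to back with a neighbour on the opposite strand, and in 5 measured pairs the neighbour was lower. Of the 30 genes with a promoter window, 10 had a start on the other strand within 1000 bases, head to head (33.3%, against 16.3% of 14452 measured genes), at 48 to 376 bases, and 9 of the neighbours were measured. Brca1 was higher by 0.59, while Nbr1, an autophagy receptor gene that starts 152 bases away, was lower by -0.49 (SE 0.04, limma adjusted p = 3.5e-05). Rmi1 was higher by 0.22 and Hnrnpk, an RNA-binding protein gene, lower by -0.53 (SE 0.07). As given above, the Rmi1 call was lost after quantile normalization and cyclic loess. Opposite directions were also seen for Fancb and Mospd2 (0.83 and -0.33) and for Rad51c and Tex14 (0.50 and -0.60). Tex14 was dim, at 4.98 in CD24+CD29+ and 5.57 in CD24-CD29- cells. Of all genes with a mean level of 5 to 6, 2499 of 4416 were lower. Atm did not pass and Npat, a histone gene regulator, was lower by -0.25 (SE 0.09). The pairs Palb2 and Dctn5 (0.29 and 0.59), Eme1 and Mrpl27 (0.66 and 0.32) and Xrcc3 and Zfyve21 (0.37 and 0.40) were higher together, and 1700065D16Rik beside Atr (-0.14) did not pass. Under scaling to the poly-A controls, which adds 0.97 to every difference, the lower neighbours become positive. Of the 9 neighbours 5 were lower, against 36.5% of all genes. The 151 bases between the starts of Brca1 and Nbr1 are shown, a pair chosen after its values were seen, on the Brca1 strand with the CCAAT box in capitals.
Brca1 to Nbr1 (chr11:101551956-101552106, minus strand, GRCm38.p6): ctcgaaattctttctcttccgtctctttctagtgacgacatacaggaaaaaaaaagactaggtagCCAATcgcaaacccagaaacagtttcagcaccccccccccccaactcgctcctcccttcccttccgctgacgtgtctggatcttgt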
